A study of Mus musculus with 23 samples.

Results

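The p53 pathway was examined through 10 genes, Trp53 itself and its transcriptional targets Mdm2, Ccng1, Cdkn1a, Plk2, Trp53inp1, Phlda3, Bbc3, Bax and Ei24, as a reading of the DNA damage response in mouse embryonic stem cells (ESCs) after activation of Cre recombinase. They were chosen by name among the 23369 gene names of the RNA-seq tables, with earlier results of these data known, and each had 1 row. RNA was measured in 3 samples labelled as untreated and 3 labelled as treated for 72 hr with 4-hydroxytamoxifen, at 800 nM in the sample labels and 800 µM in the text of the series. All 6 samples came from ESCs labelled MS12 KDM2Bfl/fl, whose Kdm2b alleles both have loxP sites flanking an exon of the ZF-CxxC DNA-binding domain, and which express ERT2Cre from 1 allele of the Rosa26 locus. Tamoxifen moves this Cre fusion into the nucleus, where it excises the exon.

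Several features of the design bear on every value. The untreated cells carried the same loxP sites and the same ERT2Cre, and no sample with a vehicle, with ERT2Cre and no loxP sites, or with loxP sites and no ERT2Cre was analysed here. Effects of tamoxifen, of Cre in the nucleus and of the loss of the exon therefore cannot be told apart. Both groups had been grown on fibroblast feeders inactivated with mitomycin C, a DNA crosslinking agent, and were settled overnight without feeders before the treatment. Samples were grouped by their labels. The file names would group all 6 samples the other way round, and under that grouping every difference below keeps its size and p-value and changes its sign.

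p53 is a transcription factor that is held at a low level by the ubiquitin ligase MDM2 and is stabilised when DNA breaks activate the kinases ATM and ATR. It then raises transcription of genes that stop the cell cycle, repair DNA or start apoptosis, and of Mdm2, which closes a feedback loop. Because the protein is controlled mainly by its stability, the RNA of its targets is the usual reading of its activity. ESCs are known to keep much p53 in the cytoplasm and to have a short G1 phase.

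p53 binds DNA as a tetramer, at a response element made of a pair of decamers that each hold a C and a G around a central A/T pair. The sequences that matched this element around the start of the members are shown because p53 binds sequences of this kind; a match is a description of letters and not a shown binding site. They were searched in mm9, within 3000 bp on each side of the annotated 5′ end, for 20 bp formed by 2 adjoining decamers, with the C and G of both decamers required and at most 2 other bases off the consensus. Capitals mark these C and G bases, and each sequence is written 5′ to 3′ on the strand of its gene.
Cdkn1a, chr17:29227873-29227892, plus strand, 1 base off, 49 bp upstream: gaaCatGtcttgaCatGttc
Ccng1, chr11:40568964-40568983, minus strand, 1 base off, 185 bp upstream: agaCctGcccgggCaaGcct
Ccng1, chr11:40568438-40568457, minus strand, 1 base off, 341 bp downstream in an intron: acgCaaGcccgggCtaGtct
Plk2, chr13:111183090-111183109, plus strand, 2 bases off, 2153 bp upstream: caaCatGcccgggCttGcat
Plk2, chr13:111184602-111184621, plus strand, 2 bases off, 641 bp upstream: gatCttGcttagaCttGttg
Bax, chr7:52721944-52721963, minus strand, 2 bases off, 315 bp downstream in an exon: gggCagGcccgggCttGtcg

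A match at most 1 base off was held by 2 of the 10 members and by 1.05% of the windows of the same length around 20818 annotated genes. With at most 2 bases off it was held by 4 of 10 members and by 6.12% of all windows. For the other 6 members these letters did not occur in the window searched. The members are textbook targets of p53, so elements near them are background to the expression values and no result of the treatment.

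**Figure D1:**
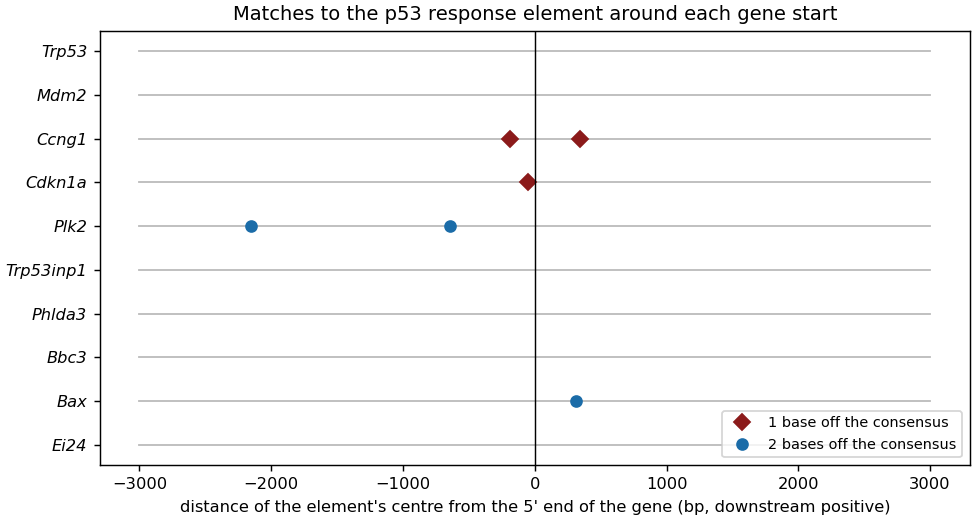
Positions of the matches to the p53 response element, in bp from the annotated 5′ end of each member, with downstream to the right. Diamonds are 1 base and circles 2 bases off the consensus, and Cdkn1a, Ccng1, Plk2 and Bax hold the 6 matches.

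Expression is given as FPKM, fragments assigned to a gene relative to its length and to the fragments of the whole sample, so that levels of different genes can be set side by side. The comparison used limma on log2(FPKM + 0.1) over the 12997 genes with at least 0.5 FPKM in at least 3 of the 6 samples, and a gene was called at a Benjamini-Hochberg adjusted p under 0.05. All 10 members passed this filter in both groups. Same-numbered replicates of both groups moved together around their group means, so a second fit took that number as a block, and both fits are given. In bulk RNA, fewer cells expressing a gene and less of its RNA per cell cannot be told apart.

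The members were well expressed in untreated cells, from 19.7 FPKM for Bbc3 to 217.5 FPKM for Bax on average. In tamoxifen-labelled cells, 8 of 10 members had a negative and 2 a positive log2 fold change. Plk2, Trp53inp1, Ccng1, Mdm2 and Cdkn1a were lower by 0.58 to 1.02 on the log2 scale, in 3 of 3 replicate numbers each, past a difference of −0.5 that 9.68% of all genes passed, whereas Trp53 was no lower in any. None of the 10 was called by limma without the block, a fit in which 0.00769% of all genes were called lower and 0.0231% higher. Their unadjusted p was under 0.05 for 5 of 10, all on the lower side, where 2.94% of all genes were, against 1.85% on the higher side. With the block these same 5 members were called lower, against 6.06% of all genes, and 0 of 10 were called higher, against 4.33%. The median log2 fold change of the members was −0.45 and that of all genes tested −0.02.

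**Figure D2:**
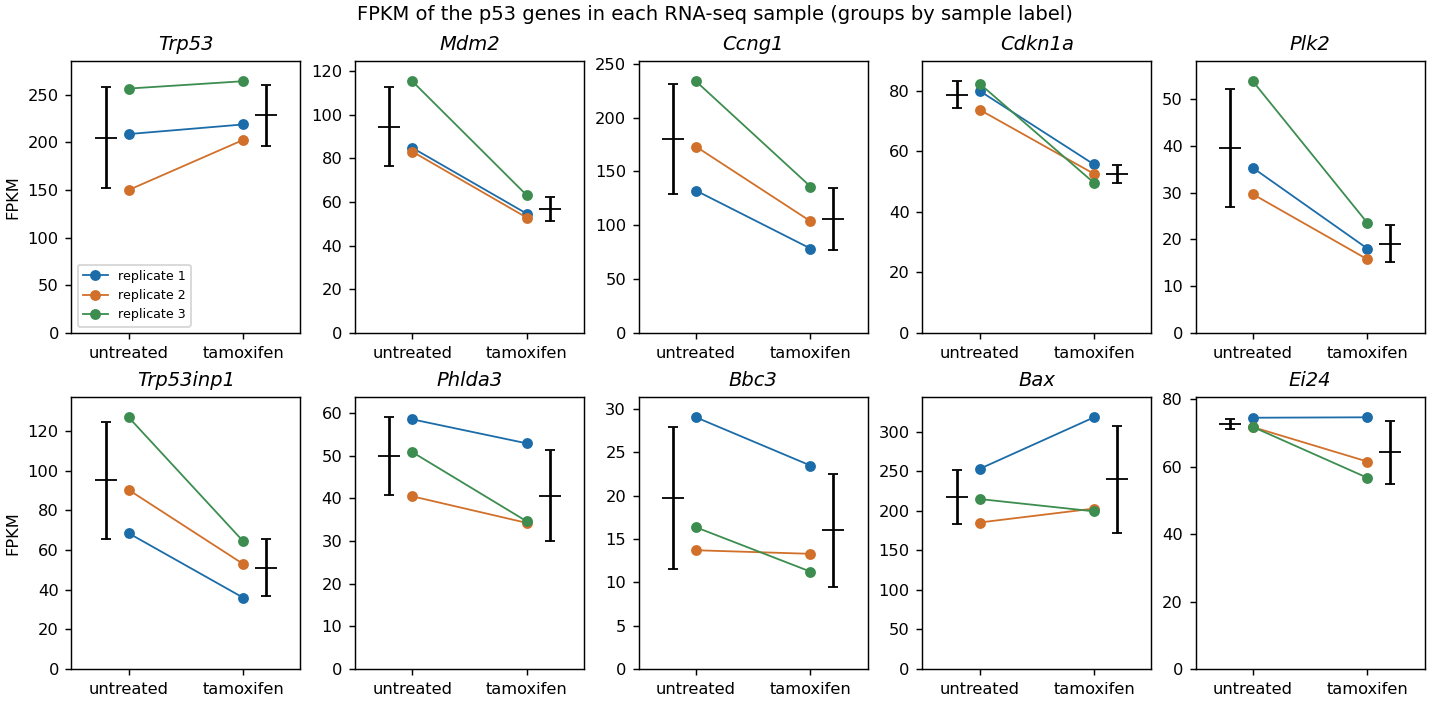
FPKM of each member (vertical axis, starting at 0) in the 3 untreated and 3 tamoxifen-labelled samples, with lines joining samples of the same replicate number and black bars for mean ± SD (n = 3). Lines of Mdm2, Ccng1, Cdkn1a, Plk2 and Trp53inp1 all go down, and those of Trp53 all go up, by 0.04 to 0.43 on the log2 scale.

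Trp53 encodes p53 and lies on the plus strand at chr11:69393861-69405375. Its FPKM was 208.6, 149.9 and 256.4 in untreated replicates 1, 2 and 3, and 218.7, 202.5 and 264.1 in tamoxifen replicates 1, 2 and 3. The groups overlapped, and the order of the replicate numbers was the same in both, with replicate 3 highest and replicate 2 lowest. The means were 204.97 ± 53.3 and 228.4 ± 31.9 FPKM (SD, n = 3 each), and mean log2(FPKM + 0.1) differed by 0.18 (standard error 0.28, adjusted p = 0.999 from limma, 95% interval −0.46 to 0.82). In the fit with the block the interval was −0.07 to 0.44 (limma adjusted p = 0.299). Replicate 2 alone gave a difference of 0.43, against 0.07 and 0.04 in replicates 1 and 3, and without the untreated sample of replicate 2 the log2 fold change was −0.027.

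Mdm2 and Ccng1 act back on p53. Mdm2, on the minus strand at chr10:117125961-117147772, encodes the ligase that marks p53 for degradation. It was at 84.8, 83.1 and 115.3 FPKM in untreated replicates 1, 2 and 3, and at 54.6, 52.8 and 63.0 FPKM in the tamoxifen samples in the same order. Every tamoxifen-labelled value was below every untreated value, which held for 4 of 10 members and for 5.4% of all genes tested, whereas the reverse held for 0 of 10 and 3.09%. The tamoxifen sample had 64.4%, 63.6% and 54.7% of the FPKM of its untreated counterpart in replicates 1, 2 and 3. Its log2 fold change was −0.72 (standard error 0.22, limma adjusted p = 0.665). The block lowered the standard error to 0.09 and the limma adjusted p to 0.00706, and without replicate 2 the blocked adjusted p was 0.0636.

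Ccng1, on the minus strand at chr11:40562054-40568788, encodes cyclin G1, which brings the phosphatase PP2A to MDM2. Its FPKM was 132.2, 173.0 and 233.8 in untreated replicates 1, 2 and 3, and 78.4, 103.7 and 135.9 in their tamoxifen counterparts. Here the groups overlapped, because tamoxifen replicate 3 lay just above untreated replicate 1. Within a number, however, the tamoxifen sample had 59.3%, 59.9% and 58.2% of the untreated FPKM, the narrowest range of the 10 members. The group means were 179.7 ± 51.1 and 106.01 ± 28.9 FPKM (SD, n = 3 each), and mean log2(FPKM + 0.1) differed by −0.76 (standard error 0.30, adjusted p = 0.909 from limma). The limma adjusted p with the block was 0.00458 (standard error 0.09), and 0.0581 when replicate 2 was left out of that fit.

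Cdkn1a and Plk2 belong to the arm that slows the cell cycle. Cdkn1a, on the plus strand at chr17:29227931-29237667, encodes p21, the inhibitor of cyclin-dependent kinases through which p53 arrests cells in G1. It stood at 79.9, 73.7 and 82.3 FPKM in the untreated samples and at 55.6, 52.5 and 49.5 FPKM in the tamoxifen samples, replicates 1 to 3. The groups did not overlap, and the spread within each was small, with means of 78.6 ± 4.45 and 52.5 ± 3.05 FPKM (SD, n = 3 each). The tamoxifen mean was 66.8% of the untreated mean. The log2 fold change was −0.58 (standard error 0.20, limma adjusted p = 0.74), and the blocked fit gave a standard error of 0.095 and a limma adjusted p of 0.0134. This call depended on settings: the blocked adjusted p from limma was 0.122 after scaling each sample to the same FPKM sum, 0.0883 without replicate 2 and 0.0522 without replicate 3.

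Plk2, on the plus strand at chr13:111185252-111191051, encodes a polo-like kinase induced by stress and acting on centrioles. Among the members it had the lowest fold change. The untreated values were 35.3, 29.7 and 53.8 FPKM and the tamoxifen values 18.0, 15.7 and 23.5 FPKM, in replicates 1, 2 and 3. All tamoxifen-labelled values were below all untreated ones, and replicate 3 was highest and replicate 2 lowest in both groups. The tamoxifen sample had 51.1%, 53.05% and 43.7% of its untreated counterpart. The log2 fold change was −1.02 (standard error 0.28, limma adjusted p = 0.505, unadjusted p = 0.00558), and in the blocked fit the limma adjusted p was 0.00344 (standard error 0.10).

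Trp53inp1 and Phlda3 encode proteins that act between p53 and cell death. Trp53inp1, on the plus strand at chr4:11083588-11101524, encodes a stress-induced nuclear protein that favours arrest and death. Its FPKM was 68.5, 90.4 and 127.0 in untreated replicates 1 to 3 and 36.0, 52.98 and 64.5 in tamoxifen replicates 1 to 3. The highest tamoxifen value was below the lowest untreated value. Both groups held the replicate numbers in the same order, from replicate 1 as the lowest to replicate 3 as the highest. The log2 fold change was −0.89 (standard error 0.31, limma adjusted p = 0.775), against a limma adjusted p of 0.00381 with the block (standard error 0.09). Trp53inp1 and Plk2 were called lower in all 8 fits that held the block.

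Phlda3, on the plus strand at chr1:137662662-137665711, encodes a pleckstrin-homology protein that competes with the survival kinase AKT for membrane lipids. It was at 58.5, 40.5 and 50.9 FPKM in untreated replicates 1, 2 and 3 and at 52.9, 34.2 and 34.6 FPKM in tamoxifen replicates 1, 2 and 3. The tamoxifen value was the lower in 3 of 3 replicate numbers, but the groups overlapped. The difference of −0.31 on the log2 scale was within the spread of the samples (limma standard error 0.26, adjusted p = 0.999), and it was not called with the block (limma adjusted p = 0.106). It was called lower in 2 of the 8 fits that held the block, with limma adjusted p of 0.0394 without replicate 1 and 0.0414 with loci under 300 bp left out and each sample scaled to the same sum.

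Bbc3 and Bax encode the mitochondrial arm of apoptosis. Bbc3, on the plus strand at chr7:16894932-16903683, encodes PUMA, a BH3-only protein that frees BAX from its inhibitors. It had 29.0, 13.7 and 16.3 FPKM in the untreated samples and 23.5, 13.3 and 11.2 FPKM in the tamoxifen samples. Replicate 1 was the highest in both groups, and the tamoxifen sample of replicate 1 exceeded the untreated samples of replicates 2 and 3. On the log2 scale the groups differed by −0.30 (standard error 0.36, limma adjusted p = 0.999), with a limma adjusted p of 0.147 in the fit with the block. Without the untreated sample of replicate 1 the log2 fold change was 0.021 (limma adjusted p = 0.986).

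Bax, on the minus strand at chr7:52717065-52722268, encodes the protein that forms pores in the outer mitochondrial membrane. Untreated replicates 1, 2 and 3 had 252.8, 185.04 and 214.7 FPKM, and tamoxifen replicates 1, 2 and 3 had 318.01, 202.7 and 199.2 FPKM. The tamoxifen value was the higher in replicates 1 and 2 and the lower in replicate 3. Its log2 fold change was 0.12 (standard error 0.28, limma adjusted p = 0.999), with a 95% interval of −0.14 to 0.37 in the fit with the block (limma adjusted p = 0.501). Without the tamoxifen sample of replicate 1 the log2 fold change was −0.10.

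Ei24, on the minus strand at chr9:36586738-36604978, encodes a protein of the endoplasmic reticulum with a role in autophagy, first found as a gene induced by p53. It varied least of the members, with 74.6, 71.8 and 71.8 FPKM in untreated and 74.7, 61.6 and 56.7 FPKM in tamoxifen replicates 1 to 3. Both groups had about the same level in replicate 1, and the tamoxifen value was the lower in replicates 2 and 3. On the log2 scale the difference was −0.19 (standard error 0.21, limma adjusted p = 0.999), with a limma adjusted p of 0.253 under the block.

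**Figure D3:**
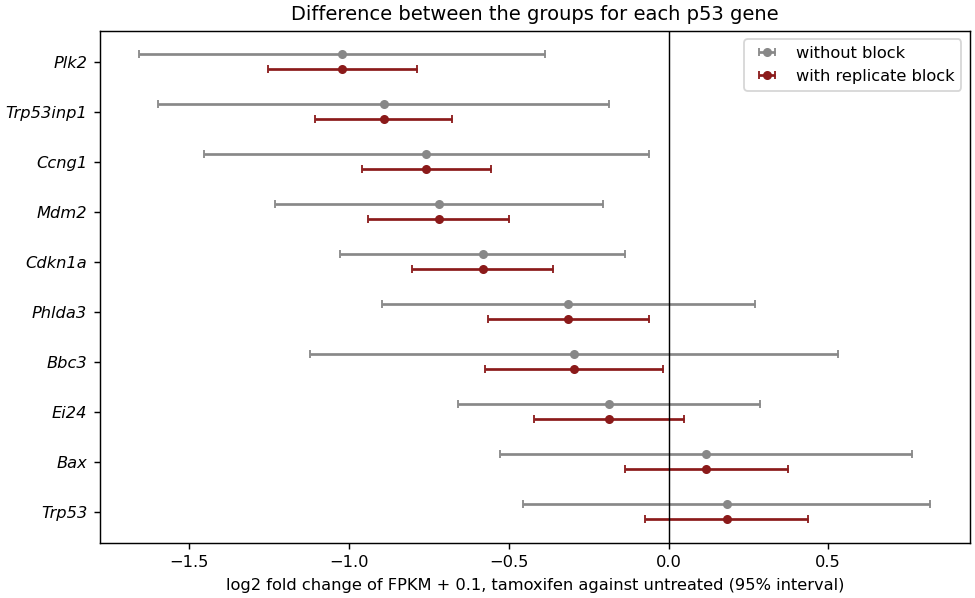
Log2 fold change of FPKM + 0.1 (horizontal axis) for each member with its 95% interval, in grey for the fit without and in red for the fit with the replicate block. Points are equal in both fits and intervals narrow with the block; for Plk2 the interval goes from −1.66 to −0.39 without and from −1.26 to −0.79 with the block.

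Permutation tests on single genes could not reach the threshold in this design. An exact two-sided permutation test of 3 against 3 samples cannot give a p below 0.1, the value for the 4 members whose groups did not overlap. The exact sign permutation over 3 pairs cannot go below 0.25, the value for the 8 members with the same direction in every pair. The calls above therefore rest on the model fitted across all genes by limma. The share of genes lower in all 3 replicate numbers was 28.2% among all genes, against 7 of 10 members, and the share higher in all 3 was 24.8%, against 1 of 10.

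The members differed among replicate numbers as well as between groups. The replicate number was a called term for 8 of 10 members (limma F test, adjusted p under 0.05), against 62.8% of all genes tested, with Cdkn1a and Ei24 as the exceptions. For Ccng1 and Trp53inp1 replicate 3 was highest and replicate 1 lowest in both groups, whereas for Bbc3, Bax and Phlda3 replicate 1 was highest. The highest sample exceeded the lowest 3.53-fold for Trp53inp1 and 1.32-fold for Ei24. Within-group coefficients of variation ran from 2.18% to 41.6% with a median of 23.5%. The lowest belonged to the untreated samples of Ei24. A coefficient of variation is a SD relative to the mean and is not on the scale of a 95% interval. The 95% intervals that the software wrote for single values, which do not cover the spread between samples, had a one-sided width with a median of 4.4% of the FPKM. Of these 60 single values, 34 lay inside the interval written beside them and 26 above it, including all 6 values each of Bax, Ccng1 and Phlda3. Among all rows of at least 10 FPKM, 64.2% to 69.9% of the values of a sample lay inside, so values outside were common across the data.

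**Figure D4:**
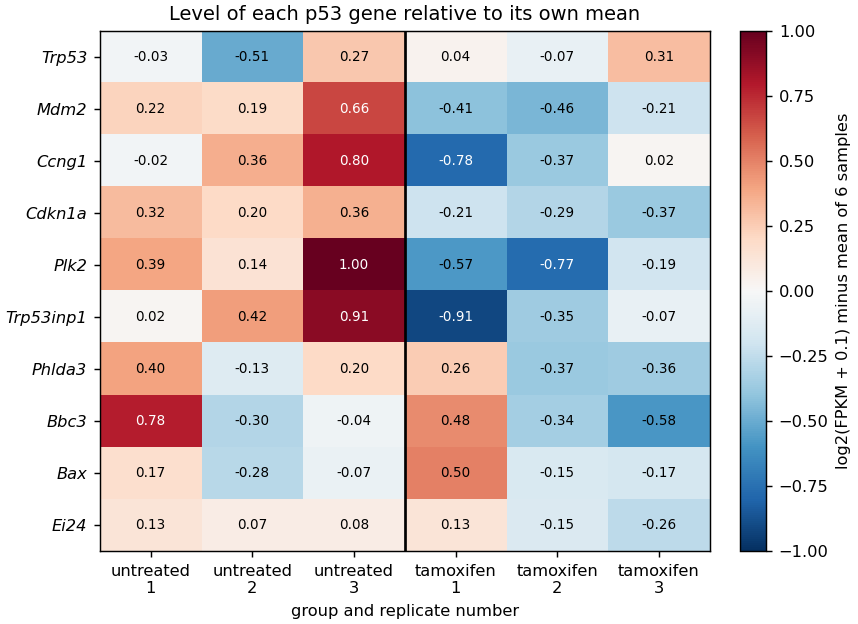
Log2(FPKM + 0.1) of each member in each sample after subtracting the gene's mean over the 6 samples, with red for higher and blue for lower and samples ordered by group and replicate number. Plk2, Mdm2 and Cdkn1a are red in the 3 untreated and blue in the 3 tamoxifen samples, whereas Bbc3 and Bax are red in both samples of replicate 1.

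Among untreated samples the levels followed the order Bax, Trp53, Ccng1, Trp53inp1, Mdm2, Cdkn1a, Ei24, Phlda3, Plk2 and Bbc3. Only 4 neighbours in this order had separate untreated ranges, Ccng1 above Trp53inp1, Mdm2 above Cdkn1a, Ei24 above Phlda3 and Plk2 above Bbc3. The other neighbours did not differ beyond their spread. The first place of Bax is uncertain, since its untreated FPKM all lay above the intervals written beside them, which ended at 205.1, 152.2 and 174.8 FPKM in replicates 1, 2 and 3. Those of Mdm2, Ccng1 and Phlda3 also lay above theirs. The place of Mdm2 above Cdkn1a is uncertain too. Its lowest untreated value, 83.1 FPKM in replicate 2, was just above the highest of Cdkn1a, 82.3 FPKM, and the interval beside it ended at 81.6 FPKM. The lowest untreated Ccng1, 132.2 FPKM, and the highest untreated Trp53inp1, 127.0 FPKM, had overlapping intervals. So did the lowest untreated Plk2, 29.7 FPKM, and the highest untreated Bbc3, 29.0 FPKM, so these places are uncertain as well.

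Other targets of p53, 30 genes listed by their textbook role with earlier results of these data known, had mostly negative fold changes. Of these 29 were present and tested, and 24 had a negative and 5 a positive log2 fold change, with a median of −0.32. With the block 11 of 29 were called lower and 0 higher by limma, against 6.06% and 4.33% of all genes, whereas 0 were called without it (4 at an unadjusted p under 0.05). In 6 of the 29 the groups did not overlap and tamoxifen was lower, against 5.4% of all genes. Their mean log2(FPKM + 0.1) was 3.77, 3.80 and 3.90 in the untreated and 3.42, 3.53 and 3.48 in the tamoxifen samples. Perp, which encodes a membrane protein of desmosomes and cell death, had the lowest fold change, with 34.3, 60.7 and 49.2 FPKM in untreated and 20.8, 26.5 and 21.3 FPKM in tamoxifen replicates 1 to 3 (log2 fold change −1.04, limma adjusted p = 0.433, and 0.00458 with the block).

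Btg2, which encodes an antiproliferative protein that recruits the deadenylation machinery to mRNA, went from 40.3 ± 6.3 to 21.4 ± 3.2 FPKM (SD, n = 3 each; log2 fold change −0.91, limma adjusted p 0.42 without and 0.00418 with the block). Eda2r, which encodes a receptor of the TNF family, had a log2 fold change of −0.83 (limma adjusted p 0.999 without and 0.00944 with the block). Dcxr, which encodes a carbonyl reductase, differed by −0.73 (0.999 and 0.0113), and Ercc5, which encodes an endonuclease of nucleotide excision repair, by −0.63 (0.74 and 0.0135; limma adjusted p in the same order). At the other end was the gene of the metabolic regulator TIGAR, listed as 9630033F20Rik, with 12.6 ± 2.46 and 14.2 ± 1.23 FPKM (SD, n = 3 each; log2 fold change 0.19, limma adjusted p = 0.293 with the block).

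**Figure D5:**
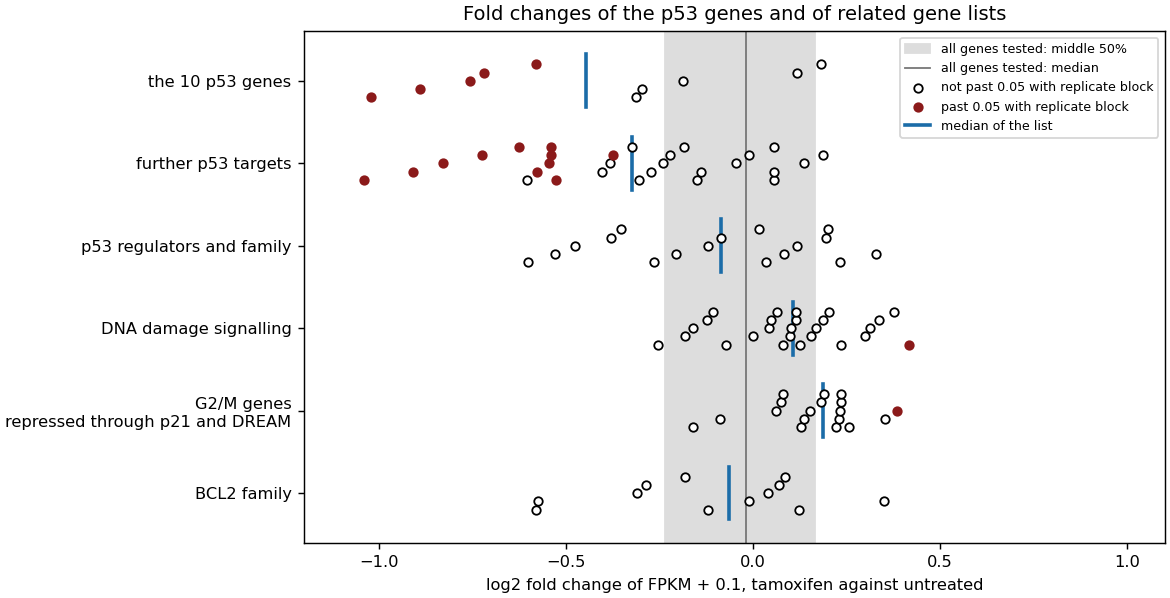
Log2 fold change of FPKM + 0.1 (horizontal axis) of every tested gene in 6 lists, with red points for genes past an adjusted p of 0.05 with the replicate block, blue lines for list medians and a grey band for the middle 50% of all genes tested (−0.24 to 0.17). The medians of the 10 members (−0.45) and of the further p53 targets (−0.32) lie left of the band, and those of the DNA damage genes (0.11) and BCL2 family (−0.06) lie within it.

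Genes that act on p53 were divided between both directions. Of 18 regulators and relatives of p53, 17 were tested, with 9 negative and 8 positive fold changes, a median of −0.09 and 0 called by limma with or without the block (7 and 0 at an unadjusted p under 0.05). The share of all genes at that unadjusted p with the block was not computed. A Benjamini-Hochberg adjusted p is about the unadjusted p divided by the share of genes at or below it. For Rnf8 the unadjusted and adjusted p were 0.0503 and 0.168 (limma with the block), so that share was far above 0.05. The 7 therefore cannot be read against 0.05. The 17 tested ranged from Hipk2, a kinase of p53 (log2 fold change −0.60, limma adjusted p = 0.0911 with the block), to Rpl5, a ribosomal protein that inhibits MDM2 (0.33, limma adjusted p = 0.062 with the block). Trp63 was below the filter.

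The 26 genes of DNA damage signalling and repair had 7 negative and 19 positive fold changes with a median of 0.11. With the block 1 of 26 was called higher by limma, near the 4.33% of all genes, and 5 had an unadjusted p under 0.05. For these 5 no share of all genes at that unadjusted p was computed, but as given above it was far above 0.05. Without the block 0 were called by limma (0 also at an unadjusted p under 0.05). The gene called was Xrcc5, which encodes the Ku80 subunit of the end-joining complex, with 48.7, 35.45 and 52.9 FPKM in untreated and 63.2, 52.9 and 65.35 FPKM in tamoxifen replicates 1 to 3 (log2 fold change 0.42, limma adjusted p = 0.0366 with the block). Lig4, the ligase of the same pathway, had the lowest fold change (−0.25, limma adjusted p = 0.203 with the block).

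p21 represses genes of the cell cycle through the DREAM complex, and 18 such genes were listed, mostly of the G2 and M phases. Of these, 16 had a positive and 2 a negative fold change with a median of 0.19, just above the middle 50% of all genes. With the block 1 of 18 was called higher by limma, near the 4.33% of all genes, and 7 had an unadjusted p under 0.05. No share of all genes was computed for that unadjusted p with the block, though it was far above 0.05. Both points hold for the BCL2 family below as well. The gene called was Cenpa, the centromeric histone, at 122.2, 73.7 and 69.96 FPKM in untreated and 170.1, 94.6 and 87.05 FPKM in tamoxifen replicates 1 to 3 (log2 fold change 0.38, limma adjusted p = 0.0377), whereas Cenpf, a kinetochore protein, had the lowest value (−0.16, limma adjusted p = 0.343 with the block). Without the block 0 of the 18 were called by limma, and 0 had an unadjusted p under 0.05. In the BCL2 family, which sets the threshold for apoptosis, 12 of 13 genes were tested and 0 were called by limma in either fit (0 at an unadjusted p under 0.05 without and 3 with the block). Their median was −0.06, from −0.58 for Hrk, at 0.662 ± 0.0971 and 0.407 ± 0.0282 FPKM (SD, n = 3 each), to 0.35 for Bik, both of which encode BH3-only proteins. Hrk passed the filter only through its untreated samples, as its tamoxifen values were all under 0.5 FPKM. Its place as the lowest of the family therefore rests in part on the filter.

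Markers of the cells were read beside these lists. ESC markers were high in all 6 samples, with Pou5f1 at 369.3 to 832.1 FPKM, and their summed FPKM was 2970 to 4178 in untreated and 3358 to 5701 in tamoxifen samples (0 of 10 called by limma with the block, 3 at an unadjusted p under 0.05). The 15 markers of feeder fibroblasts summed to 57.8 to 164.1 FPKM in untreated and 90.2 to 130.7 FPKM in tamoxifen samples. Lum was the only 1 listed at 0 in any sample, and 0 of 14 tested were called by limma with the block (3 at an unadjusted p under 0.05). For both marker lists the share of all genes at that unadjusted p with the block was not computed, though it was far above 0.05. The summed feeder markers were lower in both samples of replicate 1 than in the other samples, which did not hold for each marker (Acta2 among the exceptions), and their part in the differences among replicate numbers was not tested.

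Across the whole tables, 787 genes were called lower and 563 higher with the block. This balance depended on scaling, with 350 lower and 450 higher after scaling each sample to the same FPKM sum, and 1151 lower and 420 higher when loci under 300 bp, which held 23.9% to 67.7% of the sums, were also left out. The members called lower numbered 4 and 6 in these fits, and Plk2, Trp53inp1, Ccng1 and Mdm2 were called lower in both. Sequencing depth relative to untreated replicate 1 was 0.651 to 0.946 in the other 5 samples. Kdm2b, the targeted gene, was at 25.4 ± 3.36 FPKM in untreated and 22.3 ± 2.6 FPKM in tamoxifen samples (SD, n = 3 each), a value over the whole gene that does not resolve the floxed exon and so does not check the labels.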

How the data were processed

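PolyA+ RNA was sequenced from directional paired-end libraries. According to their methods, the authors aligned reads to mm9 with Tophat2 (version 0.5 as given) and obtained RPKM with cuffdiff 2.1.1 on refGene models; the deposited tables hold FPKM with software intervals, normalised to gene length and library size, and no read counts. Whether counting used strand was not stated. No member overlapped another gene's locus in the tables.

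Rows were summed by gene name, and 6 names with a failed value were left out. The tool limma 3.58.1 (R 4.3.3) was applied to log2(FPKM + 0.1) (lmFit, eBayes with trend, two-sided, Benjamini-Hochberg over 12997 genes). The code was run on data simulated from the blocked model itself with independent noise. That run cannot speak to the pairing or the scaling. The replicate numbers were taken as pairs, since same-numbered samples correlated in their deviations from the group means (Pearson r across genes 0.544, 0.605 and 0.506 for replicates 1, 2 and 3). These correlations come from the same values that the blocked fit tests. They show shared variation by number and not that the samples were designed as pairs. The methods call the RNA-seq samples biological triplicates, and the labels do not say whether these were separate cultures. The limma p-values rest on the spread among these samples, with the variance of each gene drawn toward a trend over all genes. They therefore do not measure the spread of a single gene alone. Relative depth was estimated from the steps between values of 1187 low genes.

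The members and gene lists were chosen with earlier results of these data known. Named genes are the members and, from each pathway list, the highest and lowest fold change and up to 5 genes called with the block, and the 3 genes with the pattern closest to Cdkn1a. Elements were searched in NCBIM37 (mm9) with Python 3.11.15. Gene positions and 5′ ends are those of the loci given with the expression values, and an annotation of that build gave strand and exons. Alternatives were other pseudocounts, filters, scalings and row choices, the replicate block, and leaving out samples. The ChIP-seq samples were not analysed here.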

Additional observations from a re-analysis of the deposited data

How the results depend on the processing

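Direction was kept under all 25 alternatives by Cdkn1a, Mdm2, Ccng1, Trp53inp1, Plk2, Phlda3 and Ei24. It turned once each for Trp53 (−0.027 without untreated replicate 2), Bbc3 (0.021 without untreated replicate 1) and Bax (−0.10 without tamoxifen replicate 1), within ranges of −0.027 to 0.36, −0.61 to 0.021 and −0.10 to 0.23 when 1 sample was left out; the cause was not tested. Without the block no member was called in any setting. Genes called lower and higher overall were then 1 and 3, and changed to 0 lower with a pseudocount of 1, 0 and 1 with no filter, and 0 and 0 with at least 1 FPKM in all 6 samples; leaving out 1 sample gave 0 to 7 lower and 2 to 5 higher.

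The replicate block moved the count of members called lower from 0 to 5, and of all genes to 787 lower and 563 higher. With the block, members called lower and all genes called lower and higher were 5, 586 and 558 after quantile normalization, 5, 931 and 659 with a pseudocount of 1, and 6, 1151 and 420 with TPM scaling after removal of loci under 300 bp. With TPM scaling alone, added after seeing the data, they were 4, 350 and 450. Leaving out 1 replicate number from the blocked fit gave 2 to 6 members, and 43 to 1011 genes lower and 36 to 744 higher, with the lowest counts all without replicate 2 (478 and 359 genes without replicate 3). Read counts were not analysed here, so no interval for counting error is given.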

Other observations

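Of 12996 other genes tested, those with a pattern over the 6 samples most like that of Cdkn1a were Fam102a, Dgka and Zbtb7b, with a root-mean-square difference of 0.07 each on the log2 scale after centring each gene on its mean. Dgka, which encodes a kinase of diacylglycerol, went from 18.7 ± 1.45 to 12.1 ± 0.439 FPKM, Zbtb7b, which encodes the transcription factor ThPOK, from 9.07 ± 0.586 to 5.61 ± 0.391 FPKM, and Fam102a from 5.18 ± 0.418 to 3.53 ± 0.0997 FPKM, in untreated and tamoxifen-labelled samples (SD, n = 3 each). Among the other 9 members, Mdm2 came closest, at rank 171 of these 12996 with a difference of 0.18. These genes were selected for their pattern, so the differences between groups are a description with no test.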
